A study of Mus musculus with 6 samples.

Results

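The genes of 10 TNF superfamily ligands were followed in Tregs from the BM of CML and naive mice. They were taken by name from the deposited tables, in which all 10 were found among 36930 features, and they are Tnf, Lta, Ltb, Tnfsf4, Tnfsf8, Tnfsf10, Tnfsf11, Tnfsf14, Fasl and Cd70. All 6 mice were Foxp3-DTR-GFP animals of 8 weeks, which carry the diphtheria toxin receptor and GFP in the Foxp3 locus, and no toxin is mentioned for these samples. The 3 CML mice had received, without irradiation, syngeneic LSKs (lin-c-kit+sca-1+ stem and progenitor cells) transduced with a BCR-ABL1-GFP retrovirus, and their Tregs were taken 15 days after CML induction. The 3 naive mice carried no leukemia. Tregs were purified by FACS, for which the study uses CD4 and the GFP of the Foxp3 locus, and each mouse gave 1 library. GFP marks Tregs in both groups, but it also marks the leukemia cells of the CML mice.

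TNF superfamily ligands are mostly membrane proteins that assemble into trimers and bind receptors of the TNF receptor superfamily on neighboring cells. Some are cut from the membrane by proteases of the ADAM family and then act as soluble cytokines. In T cells they carry signals for costimulation, survival, death and the organization of lymphoid tissue. Tregs are better known for the receptors of this family that they bear, such as Tnfrsf4 and Tnfrsf18, than for the ligands.

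Values are RPKM, in which reads are divided by the length of the gene and by the depth of the library, so that levels can be compared between genes. Multiplied by the coding length of the gene and by the estimated depth, 69.5% to 71.9% of values up to 20 reads, in genes with a single coding length, lay within 0.05 of a whole number of reads, compared with 9.52% to 11.8% when the length of the longest transcript was used. The RPKM of these tables therefore refer to coding length, and reads were estimated on this basis. The estimated depth was 829181 to 7613827 reads in CML Tregs and 5187987 to 9751911 reads in naive Tregs. CML replicate 2 had the fewest reads, followed by CML replicate 3 with 2286190. In CML replicate 2 the 10 highest features held 50.7% of the summed RPKM, compared with 28.5% to 31.3% in the other libraries. Of the 60 values of the ligands, 14 were at 0, and of the 46 values above 0, 35 lay within 0.1 of a whole number of reads. Floors given in the text are the RPKM that 3 reads would give in a library and cover counting error only.

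The markers of Tregs were high in all 6 libraries. The summed level of 6 Treg markers (Foxp3, Il2ra, Ctla4, Ikzf2, Cd4 and Cd3e) was 1414 to 1607 RPKM in naive Tregs and 1417 to 2005 RPKM in CML Tregs. Markers of other cells were present at lower levels. The sum of 7 markers of neutrophils or leukemic granulocytes, among them S100a8, Elane and Mpo, was 23.5 to 53.1 RPKM in naive Tregs and 8.77, 203 and 211 RPKM in CML replicates 1, 2 and 3. The sum of 5 erythroid markers was 3.27 to 23.4 RPKM in naive Tregs and 32.8 to 160.1 RPKM in CML Tregs. That of 4 monocyte markers was 34.4 to 60.8 RPKM in naive and 8.09 to 39.0 RPKM in CML Tregs. Most of the naive monocyte sum was Ly6c2 (29.0 to 50.6 RPKM), which had 25.2, 0 and 14.4 RPKM in CML replicates 1, 2 and 3. The mean of Csf1r was also lower in CML Tregs, but those of Lyz2 (6.21 RPKM in naive, 8.87 RPKM in CML Tregs) and Cd14 were higher. The 2 CD8 T cell markers summed to 26.2 to 58.7 RPKM in naive and 51.1 to 74.2 RPKM in CML Tregs, and the 4 NK cell markers to 5.83 to 17.4 RPKM and 5.64 to 18.7 RPKM. The 4 stromal markers stayed at or below 1.17 RPKM, with Cxcl12 and Bglap at 0 in all 6. The part of these cells in the values of the ligands was not tested. In bulk RNA, fewer cells that make a ligand and less RNA per cell cannot be told apart.

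Ltb was by far the most abundant ligand gene in BM Tregs, and Tnfsf8 had the largest log2 fold change of the 8 ligands tested. Tnfsf8 had 12.5 to 20.8 RPKM in naive Tregs but no reads in CML replicates 2 and 3. Ltb was also lower in all 3 CML libraries, by a smaller amount. No ligand passed the test across all genes. A gene was called when its Benjamini-Hochberg adjusted p from limma was under 0.05 and its fold was 1.5 or more, and 13923 genes whose mean reached 1 RPKM were tested. This rule called 0.172% of them, 0.129% lower and 0.0431% higher in CML Tregs, while 8.55% passed an unadjusted p of 0.05 together with that fold (5.94% lower, 2.61% higher). That split was 827 genes lower and 363 higher, but 590 lower and 624 higher after quantile normalization. Under this normalization, Ltb (log2 fold change -0.35) and Tnfsf8 stayed lower. The paper, with DESeq2 at an FDR of 0.05 and a fold of 1.5, reported more genes upregulated than downregulated.

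**Figure D1:**
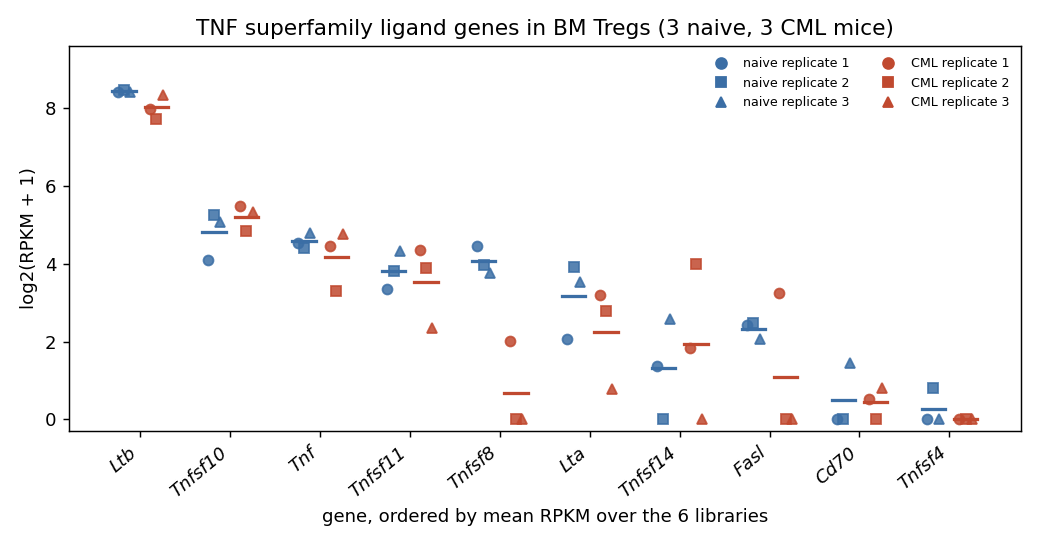
Levels of the 10 ligand genes as log2(RPKM + 1) on the y axis, with 1 point for each library (naive in blue and CML in red, n = 3 each) and a bar at the mean of each group. Tnfsf8 and Ltb are the genes for which all 3 CML points lie below all 3 naive points.

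Ltb encodes lymphotoxin β, the membrane anchor of the lymphotoxin heterotrimer that binds the lymphotoxin β receptor. It had 343, 354 and 342 RPKM in naive replicates 1, 2 and 3, and 252, 211 and 324 RPKM in CML replicates 1, 2 and 3. The naive libraries lay very close together, while the CML libraries were spread and all lay lower. With 161 to 1770 estimated reads in CML Tregs, these values are the best covered of the family. The means were 346 ± 6.26 RPKM (SD, n = 3) in naive Tregs and 262 ± 57.2 RPKM (SD, n = 3) in CML Tregs. The log2 fold change of RPKM + 1 was -0.42 (SE 0.18, 95% CI -0.83 to -0.01, limma unadjusted p = 0.0465, adjusted p = 0.507). All genes tested had a median of -0.18 on this scale, so that the difference of Ltb relative to this shift was -0.24. Without CML replicate 2, the median of all genes was -0.03 and the log2 fold change of Ltb was -0.28. By its mean over the 6 libraries, Ltb was above 98.7% of the genes tested.

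Tnfsf8 encodes the ligand of CD30, a costimulatory receptor of activated lymphocytes. Its level was 20.8, 14.7 and 12.5 RPKM in naive replicates 1, 2 and 3, and 3.03, 0 and 0 RPKM in CML replicates 1, 2 and 3. The groups did not overlap, and the highest CML value was well below the lowest naive value. By coding length these values correspond, not in whole numbers in most libraries, to 77.7, 92.7 and 88.1 estimated reads in naive Tregs and to 16.6, 0 and 0 in CML Tregs. At the lowest naive level, 7.49 reads would fall on Tnfsf8 at the depth of CML replicate 2 and 20.6 at that of CML replicate 3. The floors of these libraries, 5.03 and 1.82 RPKM, were both below every naive value. The coding length of Tnfsf8 is 720 bases, and its longest transcript has 3807. Whether reads outside the coding sequence were counted is not known, so a value of 0 may cover the coding part only. The means were 16.0 ± 4.28 RPKM (SD, n = 3) in naive Tregs and 1.01 ± 1.75 RPKM (SD, n = 3) in CML Tregs.

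On the log2(RPKM + 1) scale, the fold change of Tnfsf8 was -3.39 (SE 0.63, 95% CI -4.86 to -1.92, limma unadjusted p = 0.000735, adjusted p = 0.131). It was the 42nd lowest of the 13923 genes tested. The adjusted p did not pass the threshold with all 6 libraries. It was 0.0402 without CML replicate 1, the only CML library with reads on Tnfsf8 (log2 fold change -4.06). Both CML values left in this fit were 0, without spread, and came from the libraries of lowest depth. Its lower adjusted p is therefore no added support for a change. In this fit, Tnfsf8 was the only ligand called, among 29 of 13887 genes, of which 27 were lower in CML Tregs.

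The upstream sequences of Ltb and Tnfsf8 are shown because for these ligands all CML values lay below all naive values. They end at the base before the first annotated start of the gene (RefSeq or GENCODE M21) and come from RefSeq promoter windows of build GRCm38.p6, which held windows for 8 of the 10 ligands. Ltb lies on the plus strand of chromosome 17 from 35194439 to 35196320, and the sequence covers chr17:35194257-35194438. Tnfsf8 lies on the minus strand of chromosome 4 from 63831308 to 63861347, and the sequence covers chr4:63861348-63861534. Capitals mark the only motif match found.
Ltb: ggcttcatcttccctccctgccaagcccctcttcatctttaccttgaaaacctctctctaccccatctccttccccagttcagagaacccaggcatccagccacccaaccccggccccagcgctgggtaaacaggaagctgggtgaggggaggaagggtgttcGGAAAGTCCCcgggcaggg
Tnfsf8: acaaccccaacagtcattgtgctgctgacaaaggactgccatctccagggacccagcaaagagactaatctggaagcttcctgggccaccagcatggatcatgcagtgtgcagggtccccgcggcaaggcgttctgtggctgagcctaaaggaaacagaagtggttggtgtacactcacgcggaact
Both strands were searched for an NF-kB motif of 10 bases, for an AP-1 motif with the letters TGANTCA, for the core of an NFAT motif with the letters GGAAAA, and for a TATA box with the letters TATAAA. Ltb held 1 NF-kB match on the minus strand, written GGAAAGTCCC on the plus strand, and no match to the other 3 motifs. Tnfsf8 held no match to any of the 4. Of 32851 RefSeq promoter windows searched over their first 182 bases, as for Ltb, 5.11% held an NF-kB match. Over the first 187 bases, as for Tnfsf8, these shares were 5.29% for NF-kB, 5.14% for AP-1, 16.2% for the NFAT core and 8.62% for the TATA box. These bases end upstream of the RefSeq start of each window. Both printed sequences end at a GENCODE start that lies upstream of the RefSeq start. The bases between these starts were not searched, and the shares are not matched for distance to the GENCODE start.

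Tnf and Lta are the neighbors of Ltb in the MHC on chromosome 17, on the minus strand from 35199381 to 35202007 and from 35203165 to 35205351. Tnf, the founding cytokine of the family, had 22.1, 20.3 and 26.5 RPKM in naive replicates 1, 2 and 3, and 20.8, 8.83 and 26.3 RPKM in CML replicates 1, 2 and 3. CML replicates 1 and 3 lay within the naive range, and CML replicate 2, with 5.18 estimated reads, lay below it. The log2 fold change of Tnf was -0.40 (95% CI -1.32 to 0.51, limma adjusted p = 0.741).

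Lta encodes lymphotoxin α, which is secreted as a homotrimer or held at the membrane by lymphotoxin β. It had 3.17, 14.0 and 10.6 RPKM in naive replicates 1, 2 and 3, and 8.20, 5.94 and 0.718 RPKM in CML replicates 1, 2 and 3. The groups overlapped, and the values of CML replicates 2 and 3 rest on few reads (3 and 1). The log2 fold change was -0.91 (95% CI -2.67 to 0.85, limma adjusted p = 0.706), and it was -0.17 without CML replicate 3 and -1.46 without naive replicate 1. Of these 3 neighboring genes, only Ltb had CML libraries below all naive libraries. The microRNA genes Mir6973a and Mir6974 overlap Ltb and Lta on the same strand, so that their reads cannot be told apart from those of the host gene. Mir6973a had 72.5 to 163 RPKM in naive Tregs and 83.6, 0 and 0 RPKM in CML replicates 1, 2 and 3, and Mir6974 had reads only in naive replicate 1 (169 RPKM).

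The death ligands were Tnfsf10 and Fasl. Tnfsf10 encodes TRAIL, which triggers apoptosis through death receptors. It had 16.1, 37.4 and 32.9 RPKM in naive replicates 1, 2 and 3, and 43.9, 27.5 and 38.9 RPKM in CML replicates 1, 2 and 3. CML replicates 1 and 3 were above all naive libraries, but CML replicate 2 lay within the naive range. The log2 fold change was 0.40 (95% CI -0.41 to 1.21, limma adjusted p = 0.713), and it was 0.043 without naive replicate 1.

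Fasl, the ligand of the death receptor Fas, had 4.42, 4.54 and 3.18 RPKM in naive replicates 1, 2 and 3, and 8.50, 0 and 0 RPKM in CML replicates 1, 2 and 3. The CML libraries lay on both sides of the narrow naive range. In CML replicate 2 the floor for Fasl was 4.31 RPKM, within the naive range, so that the lack of reads there carries little information. In CML replicate 3 the floor was 1.56 RPKM, below every naive value. The log2 fold change was -1.24 (95% CI -3.31 to 0.82, limma adjusted p = 0.678). It was -2.32 without CML replicate 1 and -0.70 without CML replicate 2 or CML replicate 3.

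Tnfsf11 encodes RANKL, which drives osteoclast formation in bone. It had 9.12, 12.9 and 19.0 RPKM in naive replicates 1, 2 and 3, and 19.6, 13.9 and 4.14 RPKM in CML replicates 1, 2 and 3. The spread within the CML libraries was larger than the difference between the group means of 13.7 and 12.6 RPKM. Its log2 fold change was -0.28 (SE 0.55, limma adjusted p = 0.882).

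The costimulatory ligands Tnfsf14, Cd70 and Tnfsf4 had the lowest mean levels of the 10 ligands in naive Tregs. Tnfsf14 encodes LIGHT, a ligand of Tnfrsf14 and of the lymphotoxin β receptor. It had 1.61, 0 and 4.99 RPKM in naive replicates 1, 2 and 3, and 2.55, 15.1 and 0 RPKM in CML replicates 1, 2 and 3. Its highest value, in CML replicate 2, rests on 9 estimated reads, and the groups overlapped (log2 fold change 0.62, 95% CI -1.87 to 3.12, limma adjusted p = 0.864).

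Cd70, the ligand of Cd27, was at 0 in 3 libraries and at 0.447 to 1.74 RPKM in the others, which corresponds to 1 to 10 estimated reads. Tnfsf4 encodes the ligand of Tnfrsf4 (OX40). It had 0.764 RPKM, or 4 estimated reads, in naive replicate 2 and no reads in the other 5 libraries. The floors of Tnfsf4 were 0.660, 6.06 and 2.20 RPKM in CML replicates 1, 2 and 3 and 0.515 to 0.969 RPKM in naive Tregs. Cd70 and Tnfsf4 fell below the mean of 1 RPKM and were not tested across genes. An exact permutation test (2-sided, on mean RPKM) gave both p = 1, and its smallest possible p with 3 mice per group is 0.1. Tnfsf8 and Ltb had this smallest p of 0.1, and the other 6 ligands had p from 0.4 to 1.

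Of the 10 ligands, 8 were tested across genes and 0 were called in either direction. At an unadjusted p under 0.05 without a fold threshold, Tnfsf8 and Ltb were lower in CML Tregs, compared with 6.77% of all genes tested (9.68% in either direction). With the fold threshold of 1.5, only Tnfsf8 remained at this unadjusted p, compared with 5.94% of all genes. The groups were apart, with no overlap, for 2 of the 8 ligands tested, both lower in CML Tregs. Among all genes tested, 17.1% had groups without overlap, 12.2% lower and 4.84% higher in CML Tregs. The median log2 fold change of the 8 ligands was -0.41, with 6 below 0, while 64.3% of all genes tested were below 0. A ligand could pass the filter on low values through the group in which it was higher, so these numbers describe the list and are not support for a change.

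**Figure D2:**
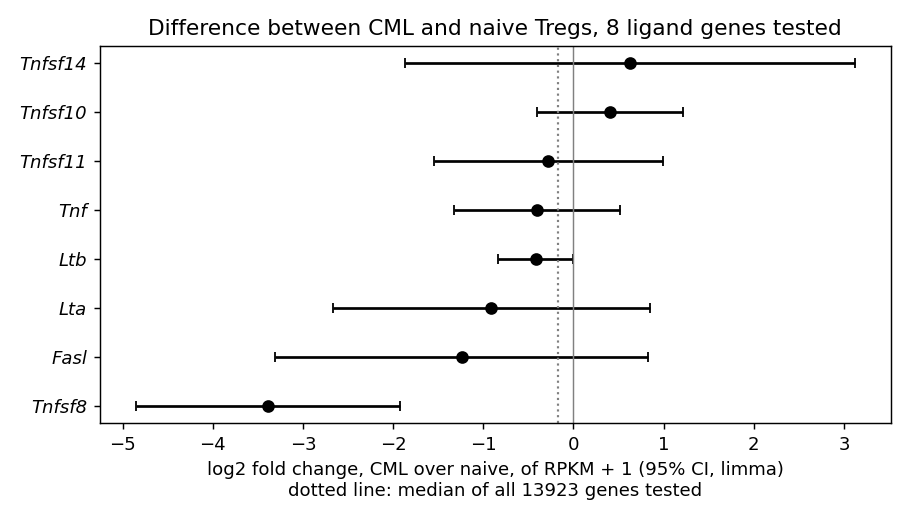
Log2 fold change of CML over naive Tregs on the log2(RPKM + 1) scale (x axis) for the 8 ligand genes tested, with the 95% CI from limma and a dotted line at the median of all genes tested, -0.18. The intervals of Tnfsf8 and Ltb lie below 0, and those of the other 6 ligands span 0.

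The order of the ligands was similar at its top in both groups. Ltb was first in naive and CML Tregs, and its lowest value was above every value of the next gene, Tnfsf10. In naive Tregs, Tnfsf10 (mean 28.8 RPKM), Tnf (22.9), Tnfsf8 (16.0), Tnfsf11 (13.7), Lta (9.27), Fasl (4.04), Tnfsf14 (2.20), Cd70 (0.581) and Tnfsf4 (0.255) followed, and the ranges of all neighbors in this order overlapped. In CML Tregs, Tnfsf10 (mean 36.8 RPKM) lay above Tnf (18.6) without overlap. Tnfsf11 (12.6), Tnfsf14 (5.88), Lta (4.95), Fasl (2.83), Tnfsf8 (1.01) and Cd70 (0.397) came next with overlapping ranges, and Tnfsf4 was at 0. Tnfsf8 was thus the 4th ligand in naive Tregs and the 8th in CML Tregs.

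A share within a library does not depend on the scaling between libraries. The summed level of the 10 ligands was 420.2, 458 and 454 RPKM in naive replicates 1, 2 and 3, and 359, 282 and 395 RPKM in CML replicates 1, 2 and 3. The CML sums were lower without overlap, whereas the sums without Ltb, 77.2 to 111 RPKM in naive and 70.8 to 107 RPKM in CML Tregs, overlapped. Ltb held 75.4% to 81.6% of the ligand sum in naive Tregs and 70.2% to 82.1% in CML Tregs, so that its share, unlike its level, overlapped between the groups. The share of Tnfsf8 was 4.95%, 3.20% and 2.76% in naive replicates 1, 2 and 3, and 0.842%, 0% and 0% in CML replicates 1, 2 and 3. The share of Tnfsf10 was 3.82%, 8.15% and 7.25% in naive and 12.2%, 9.76% and 9.87% in CML replicates 1, 2 and 3. Both shares were without overlap, lower for Tnfsf8 and higher for Tnfsf10 in CML Tregs. The level of Tnfsf10 overlapped, and the ligand sum by which its share is divided was lower in every CML library. For levels, 17.1% of all genes tested were without overlap in either direction. The shares of the other 7 ligands overlapped.

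**Figure D3:**
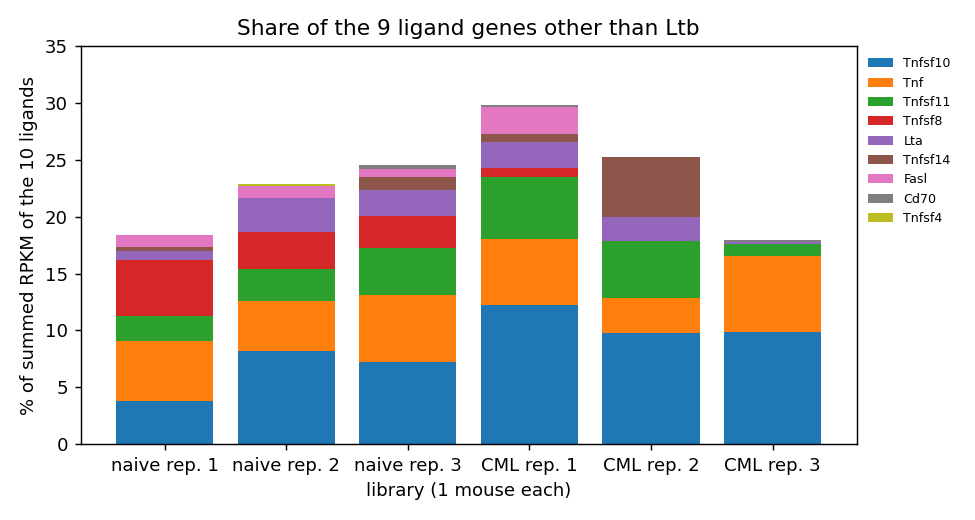
Share of each ligand gene other than Ltb in the summed RPKM of the 10 ligands (y axis, %), stacked for each of the 6 libraries. Tnfsf8 (red) takes 2.76% to 4.95% in naive Tregs and at most 0.842% in CML Tregs, and Tnfsf10 (blue) takes 9.76% to 12.2% in CML Tregs.

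The genes of the receptors were read in the same libraries. Of 13 receptor and decoy receptor genes, 10 were tested across genes and 0 were called. At an unadjusted p under 0.05, Tnfrsf1b, Tnfrsf4 and Tnfrsf8 were higher in CML Tregs, compared with 2.92% of all genes, and none was lower. The paper had already named these receptor genes among the most upregulated of its RNA-Seq analysis, so they are not a new observation here. Without CML replicate 2, which had the lowest depth, 2 receptors were called, Tnfrsf1b and Tnfrsf4, among 26 of 14034 genes. The median log2 fold change of the 10 receptors was -0.32. Ligand and receptor of 1 pair often had very different levels.

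Tnfrsf8, which encodes CD30, had 0.257, 0.685 and 2.54 RPKM in naive replicates 1, 2 and 3, and 12.5, 4.83 and 24.0 RPKM in CML replicates 1, 2 and 3 (log2 fold change 2.68, SE 0.67, limma adjusted p = 0.256). Its order was thus the opposite of that of its ligand Tnfsf8, and neither gene passed the adjusted p. The naive values of Tnfrsf8 rest on 2, 9 and 37 estimated reads in replicates 1, 2 and 3, and the first is below the floor of 0.386 RPKM. The ratio of Tnfsf8 to Tnfrsf8 RPKM was 21.4 and 4.95 in naive replicates 2 and 3, and 0.241, 0 and 0 in CML replicates 1, 2 and 3. It is left out for naive replicate 1, where Tnfrsf8 was below its floor. In naive Tregs the ligand gene was above the receptor gene in every library. The receptor value was above the ligand value in every CML library. In CML replicate 2 this order is not resolved, because Tnfrsf8 (4.83 RPKM, 6 estimated reads) lay below the Tnfsf8 floor of 5.03 RPKM. These are RNA levels. By FACS, the paper found no Tnfrsf8 protein on any cell population it analyzed, Tregs included.

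Tnfrsf4 had 176 to 205 RPKM in naive and 284 to 465 RPKM in CML Tregs (limma adjusted p = 0.161), while its ligand Tnfsf4 was at 0 in all but naive replicate 2. Tnfrsf1b, which encodes TNFR2, a TNF receptor that Tregs are known to bear, had 80.4 to 88.2 RPKM in naive and 148 to 231 RPKM in CML Tregs (limma adjusted p = 0.0793). The ratio of Tnf to Tnfrsf1b RPKM was 0.272, 0.252 and 0.301 in naive and 0.0940, 0.0596 and 0.114 in CML replicates 1, 2 and 3. The groups did not overlap in this ratio. They overlapped in Tnf itself, and Tnfrsf1b, by which Tnf is divided, was higher in every CML library. In CML replicate 2, Tnf rests on 5.18 estimated reads. Tnfrsf1a, the other TNF receptor gene, had a mean of 14.1 ± 2.07 RPKM in naive and 10.5 ± 3.89 RPKM in CML Tregs (SD, n = 3).

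Cd27, the receptor of Cd70, was high in both groups at 136 to 191 RPKM in naive and 116 to 183 RPKM in CML Tregs. Fas had 21.7 to 54.5 RPKM in naive and 12.8 to 38.4 RPKM in CML Tregs, and Tnfrsf14 had 39.2 to 43.3 RPKM in naive and 32.4 to 81.5 RPKM in CML Tregs. Ltbr, the receptor for the lymphotoxin heterotrimer, stayed at or below 1.26 RPKM in all 6 libraries, which also held Ltb at 211 RPKM or more. Tnfrsf10b, the TRAIL receptor, had 5.46 to 9.45 RPKM in naive and 1.61 to 9.47 RPKM in CML Tregs. The RANK gene Tnfrsf11a stayed at or below 0.851 RPKM, and the decoy receptor gene Tnfrsf11b was at 0 in all 6 libraries. Tnfrsf22, a decoy receptor gene, had a mean of 9.55 RPKM in naive Tregs, within the CML range of 1.62 to 21.2 RPKM. Tnfrsf23, also a decoy receptor gene, was the only receptor lower without overlap in CML Tregs, compared with 12.2% of all genes tested. It had 2.08 to 3.62 RPKM in naive and 1.17 to 1.83 RPKM in CML Tregs (limma adjusted p = 0.692). The reads behind these low values were not estimated.

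**Figure D4:**
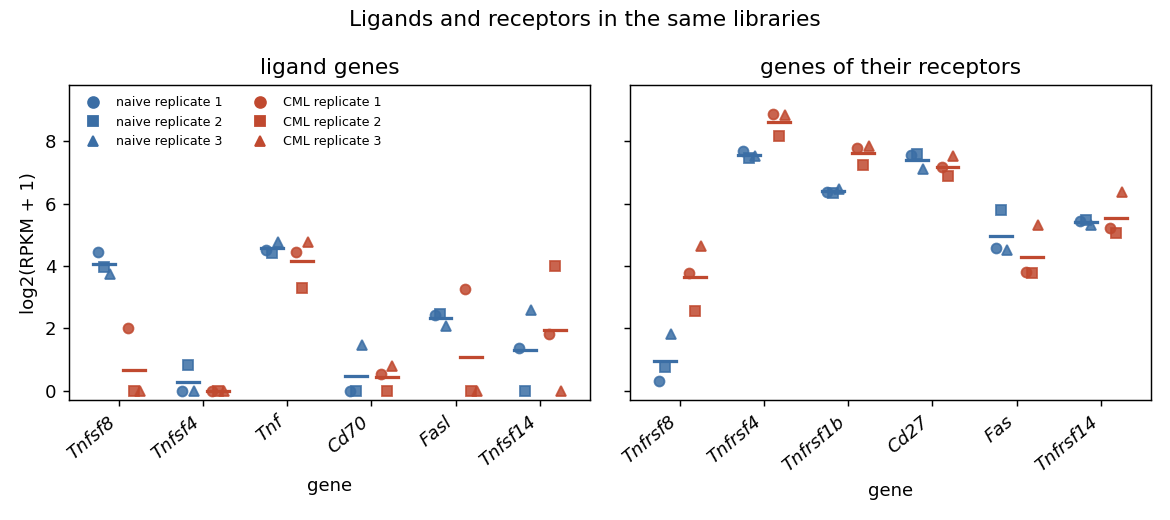
Levels of 6 ligand genes (left) and of a receptor gene for each (right) as log2(RPKM + 1), with 1 point for each library and a bar at the mean of each group (naive in blue and CML in red, n = 3 each). The CML points lie below the naive points for Tnfsf8 and above them for Tnfrsf8, Tnfrsf4 and Tnfrsf1b.

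The other 8 ligand genes of the superfamily were mostly near 0, apart from Cd40lg and Tnfsf9. The mean of Cd40lg was 13.4 RPKM in naive and 12.2 RPKM in CML Tregs, and that of Tnfsf9 was 2.51 and 5.16 RPKM. Tnfsf12, Tnfsf18 and Eda had no reads in any library, and Tnfsf13, Tnfsf13b and Tnfsf15 stayed at or below 3.20 RPKM. Only Cd40lg and Tnfsf9 were tested across genes, and neither was called or had an unadjusted p under 0.05. Among 6 genes for the proteases that release or process TNF family ligands, and for their cofactors, 5 were tested and 0 were called or had an unadjusted p under 0.05. Adam17, which sheds TNF, had 37.2 to 49.5 RPKM in naive and 39.8 to 46.9 RPKM in CML Tregs (log2 fold change 0.03, 95% CI -0.43 to 0.50, limma adjusted p = 0.966). Rhbdf1, a cofactor of Adam17, had 0.304 to 1.42 RPKM in naive Tregs and 0.250, 0 and 0 RPKM in CML replicates 1, 2 and 3. It was lower without overlap, as were 12.2% of all genes tested, but was too low to be tested across genes. Both values of 0 came from the CML libraries of lowest depth, and its reads were not estimated.

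By Pearson correlation of log2(RPKM + 1) over the 6 libraries, the genes most like Ltb were Ttll3 (r = 0.999), Pcnt (r = 0.997) and Gm16026 (r = 0.995). Those most like Tnfsf8 were Il6ra, the gene of the IL-6 receptor (r = 0.996), LOC105245069 (r = 0.996) and Rptor, which encodes a subunit of mTOR complex 1 (r = 0.996). Il6ra had 57.5 to 65.4 RPKM in naive Tregs and 14.2 to 30.2 RPKM in CML Tregs. These values of r were chosen as the highest among 13923 genes, over libraries that share depth and group, and they only describe likeness.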

How the data were processed

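The authors sequenced the RNA of Tregs from 3 mice per group (SMART-Seq v4 kit, Illumina NextSeq) and used SeqMan NGen and ArrayStar to obtain a value per feature. The builds GRCm38 and mm10 are named in the submitters' processing notes, and the annotation is not given in the sources used here. The deposited values were used as RPKM, with 0.001 set to 0 because it stands for no reads. Their unit is not named. That they are reads per coding length was inferred from whole multiples in 8756 genes with a single GENCODE M21 coding length, with a depth per library from the steps of 1297 microRNA and small nucleolar RNA features. Other scaling by the authors cannot be undone.

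R 4.3.3 and limma 3.58.1 were used to fit log2(RPKM + 1) of all genes whose mean reached 1 RPKM, with a trended prior variance and Benjamini-Hochberg adjustment. This scale makes the fold of low genes smaller. The fit was tested on simulated data. The paper's methods name DESeq2, which was not used because the deposited values are not counts. Exact permutation tests and other steps used Python 3.11.15 and scipy 1.17.1. Alternatives covered the pseudocount, filter, scaling, variance model, library weights, the replicate number as a block and each library left out.

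The ligands and gene lists were chosen with earlier results of these data known. The text names all 10 ligands, their receptors, genes of the receptor, other ligand and protease lists that were called or did not overlap, and the 3 genes most like Ltb (highest mean) and Tnfsf8 (largest fold change). Other genes were picked with their values in view. The result of another marker list is not reported here.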

Additional observations from a re-analysis of the deposited data

How the results depend on the processing

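With each library left out in turn, 0 to 1 ligands, 0 to 2 receptors and 0 to 29 of all genes were called. The ligand was Tnfsf8, called without CML replicate 1, when both remaining CML values were 0. The receptors were Tnfrsf1b and Tnfrsf4, called without CML replicate 2. Of all genes, 0 were called without naive replicate 1 or naive replicate 2, 3 without naive replicate 3 and 8 without CML replicate 3. With all libraries, 2 receptors were called under library weights, the same 75th percentile or quantile normalization, and no ligand was called under any of the 11 alternatives that kept all libraries. Of all genes, 24 were called in the main setting, 0 with a pseudocount of 0.001, 1 without a filter on low values, 53 under quantile normalization and also under the same 75th percentile, 11 without a trend in the prior variance and 45 with library weights. With the replicate number as a block, 1 gene and no ligand was called, and the adjusted p of Tnfsf8 was 0.212. Same-numbered libraries did not deviate together (r = -0.0048, -0.0016 and -0.019 for replicates 1, 2 and 3), so the numbers were not taken as pairs.

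The log2 fold change of Tnfsf8 kept its direction under all 17 alternatives, and so did that of Ltb (-0.58 to -0.28). For Tnfsf8 it was -5.64 with a pseudocount of 0.1 and -10.1 with 0.001, because 2 CML libraries are at 0. With each library left out, the direction changed for Tnf (-0.70 to 0.033), Tnfsf11 (-0.69 to 0.31), Tnfsf14 (-0.41 to 1.60), Tnfrsf14 (-0.27 to 0.38), Tnfsf9 (-0.22 to 1.36), Cd40lg (-0.86 to 0.18), Adam17 (-0.042 to 0.16) and Adam10 (-0.0082 to 0.18). The values without a library kept their direction but ranged widely for Lta (-1.46 to -0.17), Fasl (-2.32 to -0.70, and -0.28 with library weights) and Tnfsf10 (0.043 to 0.63). Tnfsf9 also changed direction with a pseudocount of 0.1 (-0.42) and 0.001 (-2.58), and Adam17 (-0.073) and Adam10 (-0.037) with the same sum in all libraries. The cause was not tested. The split of genes at an unadjusted p under 0.05 and a fold of 1.5 was 363 higher and 827 lower, and 624 higher and 590 lower with quantile normalization.

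Depth limits CML replicate 2 most. For Cd70, the ligand gene with the shortest coding length, a level under 6.15 RPKM would give fewer than 3 reads there.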
